A study of Mus musculus with 6 samples.

Results

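The genes described here are 10 macrophage cytokine genes, namely Tnf, Il1a, Il1b, Il6, Il10, Il12b, Il18, Il23a, Il27 and Il1rn, the last of which encodes the IL-1 receptor antagonist. They were chosen by name as inflammatory interleukins, TNF and their antagonists, and each matched 1 of the 24062 gene rows of the count tables. RNA sequencing was done on RAW264.7 cells, a mouse macrophage line, in 6 conditions with 1 library per condition. M0 macrophages received no polarizing agent, M1 macrophages were given LPS at 100 ng/mL together with IFN-γ at 20 ng/mL for 24 h, and M2 macrophages were given IL-4 at 20 ng/mL for as long. These are the doses of the labels and methods, and the study's description of a protein experiment gives IL-4 and IFN-γ at different doses. RM0, RM1 and RM2 are the matching states that were given 10 Gy of gamma radiation from a cesium source and kept for 24 h more before RNA was taken. The sources used here do not say whether the non-irradiated cells were kept for those hours too, so irradiation and added culture time cannot be told apart. All groups come from 1 cell line, which the labels also give as bone marrow, and RNA from 5 wells was pooled per condition, so the spread between wells was not measured.

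Macrophages sense LPS through Toll-like receptor signalling, which switches on TNF, IL-1, IL-6 and IL-12 family genes, and IFN-γ strengthens part of that response while IL-4 drives a different program. IL-1α and IL-1β act through a shared receptor that the antagonist encoded by Il1rn occupies without signalling, and IL-10 restrains cytokine production by macrophages. IL-12, IL-23 and IL-27 are each made of a pair of chains from separate genes, so the RNA of Il12b, Il23a or Il27 is the RNA of 1 chain and not of a whole cytokine.

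Total counts per library ranged from 17894937 to 18870516. Counts were scaled with the TMM method, which corrects for a few very abundant RNAs taking up reads, and levels are given as CPM, counts divided by the scaled library size. Of 7 macrophage markers, 7 had at least 10 counts in each of the 6 libraries. Lists of T cell, B cell, NK cell and epithelial markers summed to at most 4 counts in a library, and the NK cell and epithelial lists were at 0 throughout. The neutrophil list, of which 3 of 4 genes were in the tables, summed to between 2847 and 51247 counts, nearly all from S100a8, with 4580 in M0, 6667 in RM0, 32464 in M1, 51228 in RM1, 2846 in M2 and 3492 in RM2, while Elane stayed at 0 or 1. The fibroblast list summed to between 120 and 730 counts, nearly all from Dcn, with 627 in M1 and 726 in RM1 against at most 177 in the other libraries, and Col1a2 was at 0. S100a8 and Dcn were thus highest in the same pair of libraries as the cytokines induced in M1, and their part in those results was not tested. In libraries made from many cells, fewer expressing cells and less RNA per cell cannot be told apart.

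**Figure D1:**
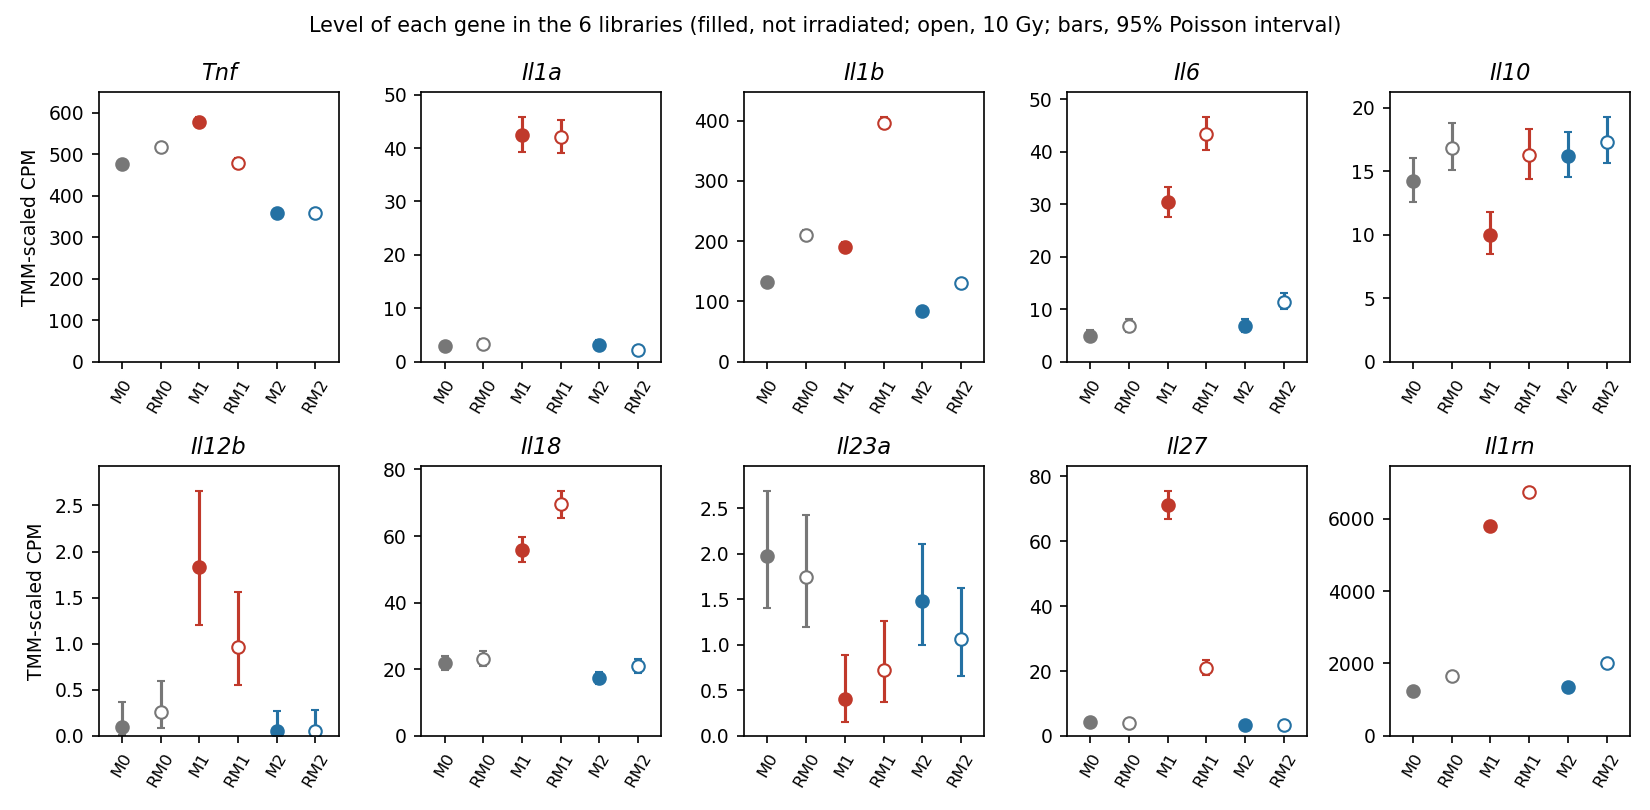
Level of each of the 10 genes in the 6 libraries, as TMM-scaled CPM on a linear axis that starts at 0 and differs between panels. Filled points are non-irradiated and open points irradiated libraries, and bars are exact 95% Poisson intervals, which cover counting error only. Il1a, Il6, Il12b, Il18, Il27 and Il1rn are highest in the M1 and RM1 libraries, while Il1b is highest in RM1 at 397 CPM.

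Levels differed widely between the genes. Per kilobase of transcript, Il1rn had the highest level in M0 at 1689 CPM per kb, followed by Tnf at 291, Il1b at 98.1, Il18 at 25.3 and Il10 at 10.9. Il6 at 4.29 and Il27 at 4.15 CPM per kb were not separated by their counting intervals in M0, nor were Il1a at 1.46 and Il23a at 1.45. Il12b was lowest at 0.0519 CPM per kb, which rests on 2 counts. These values depend on the transcript length that is used. With the longest annotated transcript the level of Il1rn in M0 was 481 CPM per kb, which was still above that of Tnf. The tables list a position for each gene, and for Il1a and Il1b it covers 20.2% and 12.7% of the annotated gene, with 7.9% and 8.48% of the transcript's bases inside it. If reads were counted there alone, the level in M0 was 18.4 CPM per kb for Il1a and 1157 for Il1b, so the place of these IL-1 genes in the order is not settled by the tables.

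Over the 6 libraries the scaled level of Il27 spanned 21.1-fold, that of Il1a 18.3-fold, Il6 8.71-fold, Il1rn 5.47-fold, Il1b 4.74-fold, Il23a 4.04-fold and Il18 3.97-fold. Il10 with 1.72-fold and Tnf with 1.62-fold spanned the least. Il12b ranged from 1 count to 27, too few to give its span a value. Thus Tnf, one of the most abundant of these transcripts, was also the one whose level moved least, and Il27 and Il1a, both low in M0, moved most of the genes given a span.

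Genes were called higher or lower between a pair of libraries at 2-fold or more with at least 10 counts in 1 of them. Such a call compares libraries, has no replicate check and carries no p-value. Irradiated against non-irradiated, the medians of the log2 fold changes of the cytokine genes with at least 10 counts were 0.18 in the M0 state, 0.27 in M1 and 0.10 in M2, where the medians of all tested genes lay between -0.01 and 0.00. Of 9 such genes, 0 were called higher and 0 lower in RM0 against M0, where 0.719% of all tested genes were called higher and 0.821% lower. In RM1 against M1, 1 of 10 was called higher, Il1b, and 1 was called lower, Il27, beside 3.08% and 2.25% of all tested genes. In RM2 against M2, 0 of 9 were called in either direction, beside 1.03% higher and 0.932% lower. The share of these genes called in RM1 lies above the background share in each direction, but it is 1 gene of 10 each way.

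A test shared by the states was made with edgeR's quasi-likelihood model of polarization and irradiation over the 6 libraries. In it the 3 states stand in for replicates, and the effect of irradiation is taken to be the same in each. Each gene has 2 residual degrees of freedom, and the test steadies its spread with information shared over all tested genes. The p-values therefore rest partly on the spread of other genes. Of the 9 cytokine genes that had at least 10 counts in at least 3 libraries, the irradiation term was called higher for 1, Il1b, and lower for 0 at an adjusted p under 0.05, beside 0.346% of all tested genes called higher and 0.13% lower. Il12b was below the count limit of this model. At an unadjusted p under 0.05 the irradiation term counted 5 of the 9, namely Il1b, Il6, Il10, Il27 and Il1rn, beside 14.7% of all tested genes in either direction.

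Il1b encodes IL-1β, a fever-inducing cytokine that is made as an inactive precursor and cut by caspase-1. It is NM_008361, listed at chromosome 2 of GRCm38, 129370284 to 129371120 on the minus strand. It had 2638 counts in M0, 4136 in RM0, 2819 in M1, 6624 in RM1, 1700 in M2 and 2601 in RM2. Every irradiated library had more Il1b reads than the non-irradiated library of its state, and RM1 stood above all the others. Irradiation went with a log2 fold change of 0.67 in M0 (95% counting interval 0.60 to 0.74), 1.06 in M1 (1.00 to 1.12) and 0.64 in M2 (0.56 to 0.73), which is 1.59-fold, 2.08-fold and 1.56-fold. The shared irradiation term of Il1b was 0.79 ± 0.11 on the log2 scale (SE, 6 libraries), with an adjusted p of 0.0146 in edgeR's quasi-likelihood test, and Il1b was higher in 3 of 3 states. Il1b thus rose after irradiation, with the states as replicates. Over the alternatives that kept the polarization term the adjusted p ran from 6.18e-09 to 0.0141, and without that term it was 1. The lowest came without M1 and RM1, from a fit with fewer libraries, and is not stronger evidence for that. An antisense gene, Il1bos, overlaps 25 bases of the Il1b transcript and had at most 4 counts in a library.

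The promoters of Il1b and Il1a are shown because these neighbouring genes encode ligands of the same receptor yet moved differently. The sequences run 5′ to 3′ from 250 bases before to 50 bases after the start site, from RefSeq's annotation of GRCm38.p6, and capitals mark the TATA box letters TATAAA and any AP-1 match TGANTCA. The window of Il1b is chr2:129371090-129371389 and that of Il1a is chr2:129309923-129310222, both on the minus strand.
Il1b: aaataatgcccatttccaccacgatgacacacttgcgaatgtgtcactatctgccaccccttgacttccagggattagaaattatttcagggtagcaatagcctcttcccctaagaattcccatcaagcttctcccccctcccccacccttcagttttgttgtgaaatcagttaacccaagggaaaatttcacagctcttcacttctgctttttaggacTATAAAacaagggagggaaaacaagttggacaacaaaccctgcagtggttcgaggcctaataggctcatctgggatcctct
Il1a: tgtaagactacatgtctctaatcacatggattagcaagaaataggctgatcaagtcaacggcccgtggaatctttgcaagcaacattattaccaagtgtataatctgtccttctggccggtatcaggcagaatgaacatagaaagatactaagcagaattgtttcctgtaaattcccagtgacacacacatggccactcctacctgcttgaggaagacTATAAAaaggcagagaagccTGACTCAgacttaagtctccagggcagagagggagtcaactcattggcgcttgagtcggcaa
A TATA box match lies at position -31 from the start site in Il1b and -32 in Il1a. The window of Il1a also holds an AP-1 match at position -12 and the PU.1 letters GAGGAA at position -41, while the Il1b window matched neither motif. Of 32851 promoter windows, 13.6% hold TATAAA, 7.81% the AP-1 letters and 28.3% the PU.1 letters, on either strand.

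Il1a encodes IL-1α, which signals through the same receptor and can act as a precursor. It is NM_010554, listed at chromosome 2, 129307883 to 129309972 on the minus strand. Its counts were 57 in M0, 64 in RM0, 627 in M1, 702 in RM1, 63 in M2 and 44 in RM2. The M1 and RM1 libraries were far above the other 4, and irradiated and non-irradiated libraries of a state lay close together. After irradiation the log2 fold change of Il1a was 0.18 in M0 (-0.35 to 0.73), -0.01 in M1 (-0.17 to 0.15) and -0.47 in M2 (-1.08 to 0.09). Each of these intervals includes 0, and the shared irradiation term was -0.07 ± 0.16 on the log2 scale (SE, adjusted p = 0.861, edgeR). The noncoding gene Gm14023 overlaps 11.2% of the Il1a transcript on the other strand and had between 1 and 14 counts. Whether counting used the strand is not given in the sources used here, so reads in these overlaps cannot be told apart.

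Il1rn encodes the antagonist that binds the IL-1 receptor. It is NM_001159562, at chromosome 2, 24336860 to 24351491 on the plus strand. It had 24390 counts in M0, 32192 in RM0, 85639 in M1, 112238 in RM1, 27403 in M2 and 39833 in RM2. It was higher in the irradiated library of each state, by a log2 fold change of 0.42 in M0 (0.39 to 0.44), 0.22 in M1 (0.20 to 0.23) and 0.57 in M2 (0.55 to 0.59). At this depth counting error is narrow, but none of these changes reached 2-fold, and the shared irradiation term of 0.40 ± 0.14 had an adjusted p of 0.22 in edgeR's test. Without the M1 and RM1 libraries the term was 0.50 with an adjusted p of 5.29e-06 in edgeR's test. That fit rests on fewer libraries, so its lower p-value is not stronger evidence. The term did not pass in the other alternatives. Those included an adjusted p of 0.363 without M0 and RM0 and 0.984 without M2 and RM2, and 0.0776 in DESeq2's Wald test.

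Within a library, the number of Il1rn reads per read of Il1a and Il1b together is free of the scaling between libraries, though it is not corrected for length. It was 9.05 in M0 (exact 95% interval 8.7 to 9.42), 24.9 in M1 (24 to 25.7) and 15.5 in M2 (14.8 to 16.3). RM0 had a ratio of 7.66 (7.42 to 7.92), RM1 had 15.3 (15 to 15.7) and RM2 had 15.1 (14.5 to 15.7). Il1rn reads outnumbered those of the agonists in each of the 6 libraries. Per kilobase this order depends on the lengths used, since Il1b at 1157 CPM per kb from its listed bases lay above Il1rn at 481 from its longest transcript in M0. The intervals of M0 and RM0, and those of M1 and RM1, do not overlap, with the lower ratio in the irradiated library, while those of M2 and RM2 overlap. These intervals hold counting error only, and with 1 library per condition the differences have no test. Against Il1b alone the ratio was 30.4 in M1 and 16.9 in RM1. The share of Il1a among the reads of Il1a and Il1b was 2.12% in M0, 18.2% in M1 and 3.57% in M2, and 1.52%, 9.58% and 1.66% in RM0, RM1 and RM2. Il1a thus made up its highest share in M1, and the share in RM1 was lower, where Il1b reads were more numerous and Il1a reads were at the same scaled level.

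**Figure D2:**
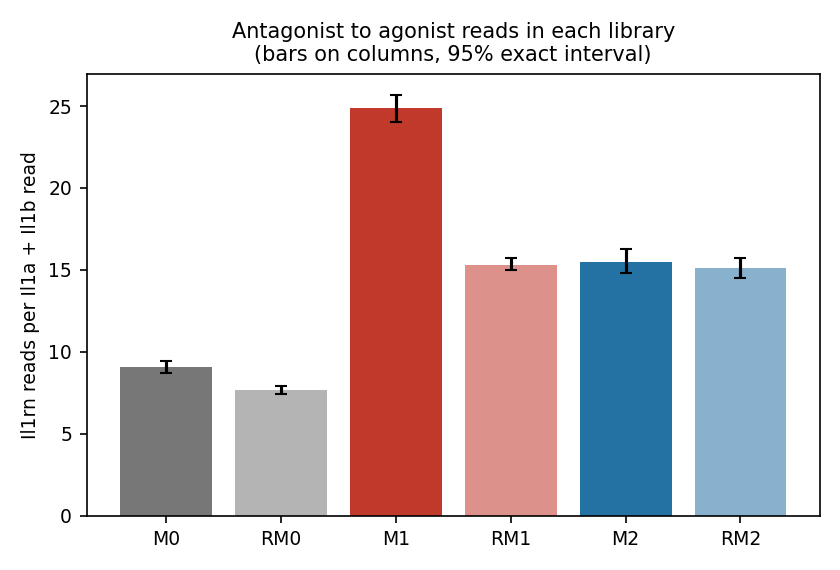
Reads of the antagonist Il1rn per read of the agonists Il1a and Il1b in each library, on an axis from 0. Columns are the ratio in 1 library and the bars on them exact 95% intervals for counting error. The ratio is highest in M1 at 24.9 and lowest in RM0 at 7.66.

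Tnf encodes tumor necrosis factor, a membrane protein that is shed from macrophages. It is NM_013693, at chromosome 17, 35199367 to 35202007 on the minus strand. Its counts were 9468 in M0, 10149 in RM0, 8548 in M1, 8003 in RM1, 7292 in M2 and 7099 in RM2. The 6 libraries lay close together, with the M2 pair lowest. Between irradiated and non-irradiated cells the log2 fold change was 0.12 in M0 (0.08 to 0.16), -0.27 in M1 (-0.31 to -0.22) and -0.01 in M2 (-0.05 to 0.04). The signs in M0 and M1 are opposite, the difference between the states was not tested, and the shared irradiation term was -0.05 ± 0.11 (SE, adjusted p = 0.859, edgeR).

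The promoter of Tnf is shown beside that of Il6 as the least and one of the more variable of these genes in the 6 libraries. They lie at chr17:35201958-35202257 on the minus strand and chr5:30012864-30013163 on the plus strand, drawn and credited as above, with capitals for the TATA box letters, AP-1 matches and matches to the NF-kB consensus.
Tnf: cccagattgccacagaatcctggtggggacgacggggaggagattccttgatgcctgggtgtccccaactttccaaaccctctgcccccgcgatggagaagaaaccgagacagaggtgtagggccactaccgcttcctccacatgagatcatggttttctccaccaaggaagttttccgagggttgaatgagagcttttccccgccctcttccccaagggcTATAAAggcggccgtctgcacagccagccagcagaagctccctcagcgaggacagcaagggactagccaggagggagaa
Il6: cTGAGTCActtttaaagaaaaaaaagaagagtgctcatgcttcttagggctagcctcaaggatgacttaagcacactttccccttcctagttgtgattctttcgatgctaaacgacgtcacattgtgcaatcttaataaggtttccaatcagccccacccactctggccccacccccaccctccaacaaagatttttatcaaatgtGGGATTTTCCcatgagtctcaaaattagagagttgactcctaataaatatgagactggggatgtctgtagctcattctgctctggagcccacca
The Tnf window holds a TATA box match at position -29 and the PU.1 letters at position -117. The Il6 window holds an NF-kB match at position -44, the C/EBP letters TTGCNNAA at position -128 and an AP-1 match at position -249. Of the 7 cytokine genes with a window, 1 had an NF-kB match, 3 an AP-1, 1 a C/EBP and 3 a PU.1 match. The TATA box letters matched in 5 and the GAS letters TTCNNNGAA in 0. The TATA letters lay at position -29 in Tnf, -31 in Il1b and -32 in Il1a. In Il18 they lay at -175 and in Il1rn at 14, after the start site. These genes have 9 windows, and for each motif as many windows matched as genes. Over all 32851 windows the shares were 8.46% for NF-kB, 7.81% for AP-1, 10.8% for C/EBP, 28.3% for PU.1, 13.6% for TATAAA and 8.3% for GAS. A match describes letters in the window and is not evidence of binding. Il10, Il23a and Il27 were not matched to a window.

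Cytokine messages are often short-lived, and the AU-rich nonamer TTATTTATT after the stop codon is a known signal for decay. Because Tnf and Il27 differ so much in how far they moved, the stretches with this element are shown, 30 bases each from the longest annotated coding transcript, with the nonamers in capitals.
Tnf: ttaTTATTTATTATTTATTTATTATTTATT
Il27: agatatttatttcttggatatTTATTTATT
Il23a: ttgtaacagtatagatgatggTTATTTATT
Tnf had 5 nonamers after its stop codon, of which 4 overlap in the stretch shown, Il27 had 2, of which the stretch shown holds 1, and Il23a had 1. The other 7 cytokine genes had 0. Of 10928 genes with sequence after the stop codon and at least 10 counts in a library, 8.11% held the nonamer and 1.82% held 2 or more.

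Il6 encodes IL-6, which drives the acute phase response. It is NM_031168, at chromosome 5, 30013161 to 30019968 on the plus strand. It had 97 counts in M0, 134 in RM0, 449 in M1, 724 in RM1, 138 in M2 and 227 in RM2. Each irradiated library was above its non-irradiated partner, and the M1 pair was above the rest. For Il6 the log2 fold change after irradiation was 0.47 in M0 (0.10 to 0.88), 0.51 in M1 (0.34 to 0.69) and 0.74 in M2 (0.44 to 1.07). The shared term of 0.58 ± 0.13 missed the threshold, with an adjusted p of 0.0794 in edgeR's test. In edgeR's test it passed without the M1 and RM1 libraries, at an adjusted p of 0.00557, and with no filter on counts, at 0.0434. It did not pass in the other alternatives. Those included an adjusted p of 0.0563 without M0 and RM0 and 0.551 without M2 and RM2, and 0.118 in DESeq2's Wald test. A fit with a state left out rests on fewer libraries, so a lower p-value there is not stronger evidence.

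Il18 encodes IL-18, a relative of IL-1β that is likewise cut by caspase-1. It is NM_008360, listed at chromosome 9, 50565368 to 50581837 on the plus strand, which is 61% of the annotated gene but holds the whole transcript. The counts of Il18 were 432 in M0, 455 in RM0, 826 in M1, 1158 in RM1, 353 in M2 and 415 in RM2. The M1 pair was highest, and the step after irradiation was small in each state. It came to a log2 fold change of 0.09 in M0 (-0.10 to 0.29), 0.31 in M1 (0.18 to 0.44) and 0.26 in M2 (0.06 to 0.47), and the shared term was 0.23 ± 0.10 (adjusted p = 0.343, edgeR).

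Il27 encodes p28, a chain of IL-27. It is NM_145636, at chromosome 7, 126589295 to 126594910 on the minus strand. Its counts were 84 in M0, 79 in RM0, 1052 in M1, 350 in RM1, 70 in M2 and 65 in RM2. Among the 10 genes Il27 had the lowest log2 fold change of any in RM1 against M1, at -1.76 (-1.94 to -1.59), which is 3.38-fold lower. In M0 and M2, where the gene was low, the log2 fold change after irradiation was -0.07 in each, with intervals from -0.53 to 0.39 and from -0.58 to 0.43. Even so, RM1 had more Il27 reads than RM0 and RM2. The shared irradiation term was -0.88 ± 0.29 with an adjusted p of 0.215 in edgeR's test, and it was -1.21 (adjusted p = 0.0442) without M0 and RM0, -1.09 (0.000366) without M2 and RM2 and -0.07 (0.939) without M1 and RM1. Each fit with a state left out rests on fewer libraries, so its lower p-value is not stronger evidence. Whether the change differs between states could not be tested with 1 library per condition. Apobr overlaps 10.1% of the Il27 transcript on the other strand and had between 2839 and 3144 counts. Its part in the Il27 counts was not tested. Ebi3, which encodes the other chain of IL-27, had 3419 counts in M0, 3612 in RM0, 3950 in M1, 3310 in RM1, 2957 in M2 and 2765 in RM2. Its log2 fold change in RM1 against M1 was -0.43 (-0.50 to -0.36).

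Il12b encodes p40, the chain that IL-12 and IL-23 share. It is NM_008352, at chromosome 11, 44400063 to 44414017 on the plus strand, and had 2 counts in M0, 5 in RM0, 27 in M1, 16 in RM1, 1 in M2 and 1 in RM2. The log2 fold change in RM1 against M1 was -0.86 with an interval from -1.92 to 0.02, so a difference was not detectable at this depth. In RM0 against M0 it was 0.80 (-1.27 to 4.73), and no fold change is given for M2. Il12a, whose product pairs with p40 to form IL-12, had 0 counts in all 6 libraries, where 0 counts allow up to 3 in a library.

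Il23a encodes p19, which pairs with p40 to form IL-23. It is NM_031252, at chromosome 10, 128296140 to 128298084 on the minus strand, 74.4% of the annotated gene. Its counts were 39 in M0, 34 in RM0, 6 in M1, 12 in RM1, 30 in M2 and 21 in RM2. It was lowest in the M1 pair, the reverse of Il12b. After irradiation the log2 fold change of Il23a was -0.17 in M0 (-0.89 to 0.52), 0.69 in M1 (-0.70 to 2.53) and -0.44 in M2 (-1.36 to 0.37), intervals that each include 0.

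Il10 encodes IL-10, the main cytokine of this set that dampens macrophage activation. It is NM_010548, at chromosome 1, 131019845 to 131024970 on the plus strand. It had 282 counts in M0, 330 in RM0, 148 in M1, 271 in RM1, 329 in M2 and 344 in RM2. M1 stood alone at the low end, with 10 CPM against 14.2 to 17.3 CPM in the other 5 libraries. After irradiation Il10 had a log2 fold change of 0.24 in M0 (0.01 to 0.48), 0.69 in M1 (0.41 to 1.00) and 0.10 in M2 (-0.13 to 0.32), and the shared term was 0.33 ± 0.14 (adjusted p = 0.315, edgeR). In RM1 the level of Il10, 16.3 CPM, was within the counting intervals of RM0 and RM2.

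**Figure D3:**
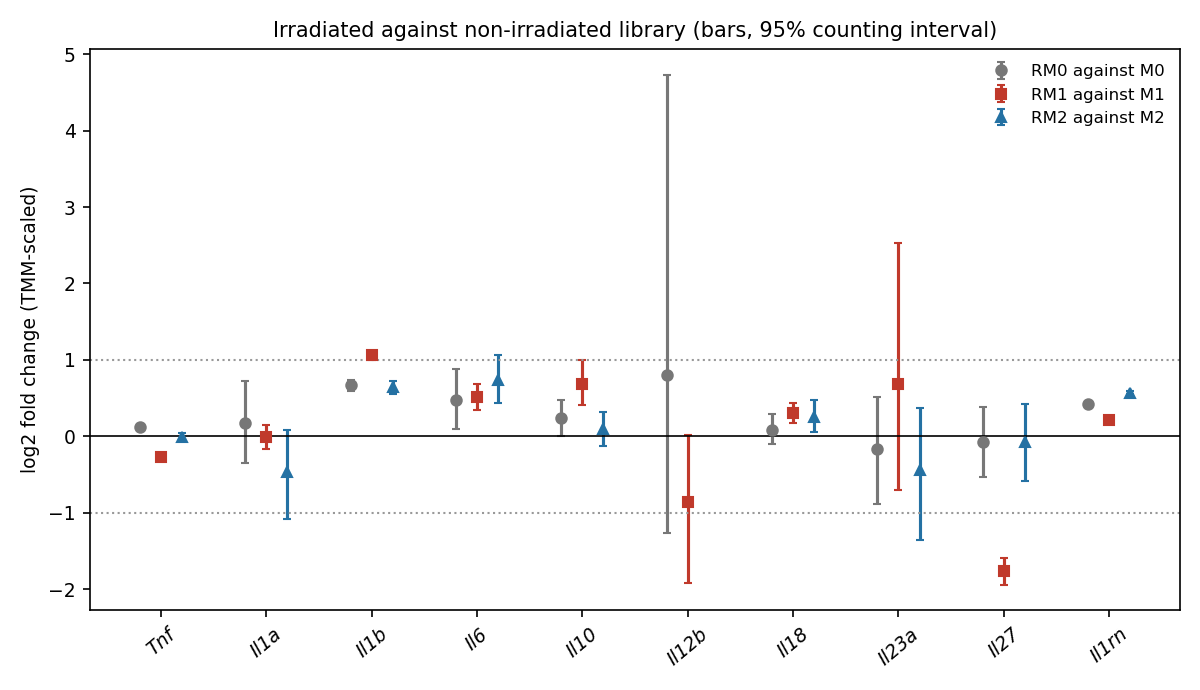
The log2 fold change of each of the 10 genes in the irradiated against the non-irradiated library, state by state. Bars are 95% counting intervals, and dotted lines mark 2-fold. Il1b lies above 0 in 3 of 3 states, Il27 lies at -1.76 in M1 and at -0.07 in M0 and M2, and Il12b in M2, with 1 count in each library, has no point.

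More of these genes passed the 2-fold call with M1 polarization than with irradiation. In M1 against M0, 6 of the 10 genes were called higher and 1 lower, beside 9.37% and 13.3% of all tested genes, and their median log2 fold change was 1.80 against -0.03 for all tested genes. In RM1 against RM0, 6 were called higher and 1 lower, beside 6.16% and 7.87%, with a median of 1.57 against -0.01. The comparisons of M1 with M0 and of RM1 with M1 share the M1 library, and those of M1 and M2 share M0, as the irradiated comparisons share RM0. Scaling matters more here than for irradiation. By library totals the median log2 fold change of all tested genes was -0.46 in M1 against M0, and 16.8% of the calls were higher in place of 41.3%. In RM1 against RM0 that median was -0.25 and the share 25% in place of 43.9%. For irradiation, the share that was higher was 70.5% by library totals in place of 57.8% in RM1 against M1, with a median of 0.13, and 39.7% in place of 52.6% in RM2 against M2.

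The 6 genes called higher in M1 against M0 were Il27, with a log2 fold change of 4.04 (3.75 to 4.41), Il1a with 3.83 (3.49 to 4.30), Il12b with 3.21 (2.19 to 7.30), Il6 with 2.61 (2.31 to 2.97), Il1rn with 2.24 (2.22 to 2.26) and Il18 with 1.35 (1.19 to 1.53). The value of Il12b rests on 2 counts in M0, and that of Il18 was 0.91 by library totals, below 2-fold. The gene called lower was Il23a, with -2.01 (-3.81 to -1.03). The genes that encode the partner chains of IL-23 thus lay on opposite sides of 0.

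The intervals of Il27 and Il1a overlapped in M1 against M0, and after irradiation Il27 lay below Il1a. In RM1 against RM0 the log2 fold change was 3.64 for Il1a (3.32 to 4.08), 2.65 for Il6 (2.40 to 2.94), 2.35 for Il27 (2.02 to 2.75), 2.03 for Il1rn (2.02 to 2.05), 1.58 for Il18 (1.42 to 1.74) and 1.56 for Il12b (0.40 to 3.71). Il23a was again the gene called lower, at -1.15 (-2.35 to -0.28). Il1b was below 2-fold in both settings, at 0.52 (0.44 to 0.60) without and 0.91 (0.86 to 0.97) with irradiation, and at 0.08 and 0.66 by library totals.

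Tnf was 0.28 (0.23 to 0.32) in M1 against M0 and -0.11 (-0.15 to -0.07) in RM1 against RM0 on the log2 scale. By library totals these were -0.17 and -0.36, so the direction without irradiation depends on the scaling. Il10 was -0.50 (-0.80 to -0.21) in M1 against M0 and -0.05 (-0.29 to 0.18) in RM1 against RM0, and -0.94 and -0.30 by library totals. Neither gene reached 2-fold.

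In the model of 6 libraries, with irradiated and non-irradiated libraries standing in for replicates, the M1 term was called higher for 6 of the 9 cytokine genes tested and lower for 1, beside 23.3% and 24.3% of all tested genes. The log2 change was 3.78 ± 0.19 for Il1a (SE, adjusted p = 3.9e-07, edgeR), 3.31 ± 0.35 for Il27 (4.16e-05), 2.65 ± 0.16 for Il6 (1.14e-06) and 2.14 ± 0.17 for Il1rn (7.49e-06). It was 1.47 ± 0.13 for Il18 (1.18e-05), 0.72 ± 0.14 for Il1b (0.00158) and -1.68 ± 0.43 for Il23a (0.00804). Il1a, Il27, Il6, Il1rn, Il18 and Il1b thus rose with M1 polarization and Il23a fell. Tnf at 0.08 ± 0.14 (adjusted p = 0.643) and Il10 at -0.26 ± 0.18 (adjusted p = 0.249) did not pass the edgeR test. Without the irradiation term Il1b no longer passed, with 0.77 and an adjusted p of 0.121.

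With IL-4 the cytokine genes lay much closer to M0. In M2 against M0, 0 of 9 were called higher and 0 lower, beside 0.995% and 0.442% of all tested genes, and in RM2 against RM0 0 of 9 were called, beside 1.66% higher and 0.953% lower. The median log2 fold change of the cytokine genes was -0.29 in both. Il1b was -0.67 (-0.76 to -0.58) without and -0.69 (-0.76 to -0.62) with irradiation, Tnf was -0.41 (-0.45 to -0.36) and -0.53 (-0.58 to -0.49), and Il6 was 0.47 (0.09 to 0.87) and 0.73 (0.43 to 1.06). In edgeR's model 0 of 9 passed for the M2 term, beside 0.156% of all tested genes called higher and 0.0346% lower, and 3 had an unadjusted p under 0.05, beside 10.1% of all tested genes. These 3 were Il1b, with -0.68 ± 0.14 (adjusted p = 0.105), Tnf, with -0.47 ± 0.14 (0.38), and Il6, with 0.62 ± 0.17 (0.294). In DESeq2's Wald test 1 passed, Il1b, at an adjusted p of 0.00755, beside 0.354% of all tested genes.

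**Figure D4:**
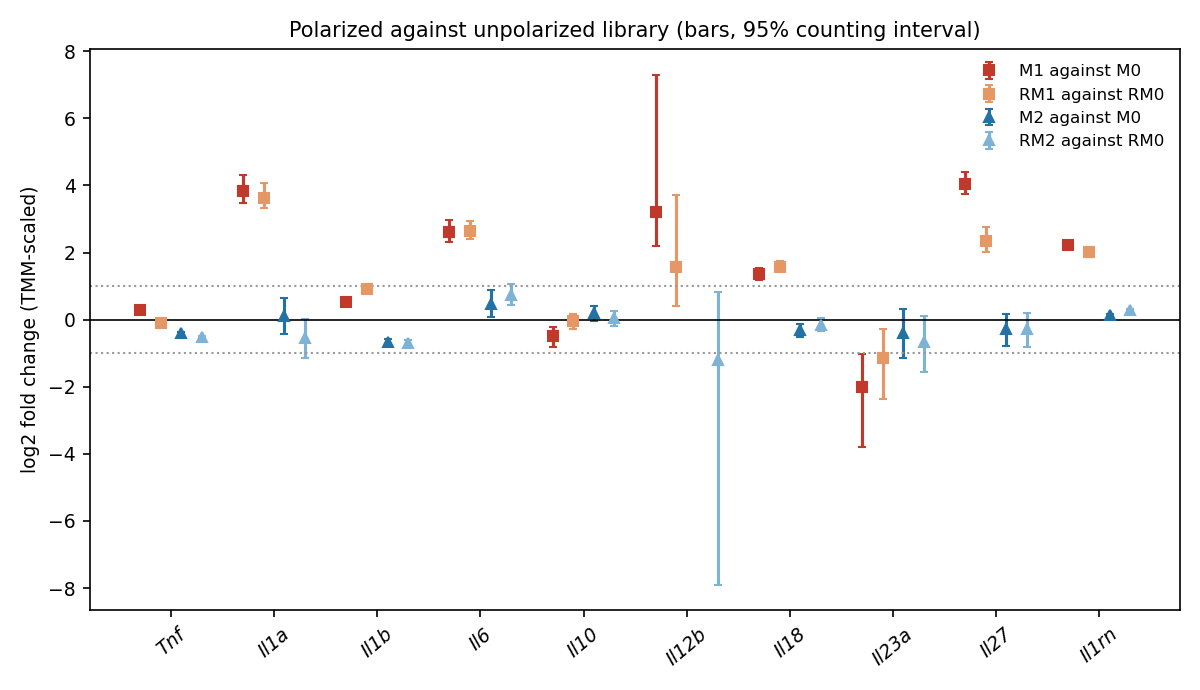
The log2 fold change of each gene in polarized against unpolarized cells, without irradiation (M1 and M2 against M0) and after it (RM1 and RM2 against RM0). Bars are 95% counting intervals and dotted lines mark 2-fold. Il27 is the gene with the highest value in M1 against M0, 4.04, and lies at 2.35 in RM1 against RM0.

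The genes around these cytokines were described as 3 lists. Of 14 receptor genes, 11 had at least 10 counts. In RM0 against M0 0 were called, beside 0.719% of all tested genes called higher and 0.821% lower. In RM1 against M1 1 was called higher, beside 3.08%, and in RM2 against M2 1 was called higher, beside 1.03%. Both calls were Il1r1, the signalling receptor of IL-1, which went from 28 to 70 counts in the M1 state, 1.11 on the log2 scale (0.50 to 1.84), and from 20 to 43 counts in the M2 state, 1.06 (0.34 to 1.98). It had 11 counts in M0 and 19 in RM0. In M1 against M0, 3 of the 11 were called higher and 1 lower, beside 9.37% and 13.3% of all tested genes. These were Tnfrsf1b, a receptor of TNF, at 2.68 (2.65 to 2.72), Il1r1 at 1.59 (0.72 to 2.93), Il6st, the signalling chain of the IL-6 receptor, at 1.08 (0.96 to 1.20), and Il18rap, a chain of the IL-18 receptor, at -1.85 (-2.21 to -1.54). In M2 against M0 0 receptor genes were called, beside 0.995% and 0.442%, and in RM2 against RM0 1 was called higher, Il1r1 at 1.08 (0.35 to 2.02), beside 1.66%.

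Of 11 partner, decoy and processing genes, 9 had at least 10 counts. After irradiation 1 was called higher in each state. The shares of all tested genes called higher were 0.719% in the M0 state, 3.08% in M1 and 1.03% in M2. In RM1 against M1 1 was called lower, beside 2.25%. In M1 against M0 5 were called higher and 2 lower, beside 9.37% and 13.3% of all tested genes. Il18bp, which encodes a soluble protein that captures IL-18, had 10 counts in M0, 7 in RM0, 464 in M1, 91 in RM1, 9 in M2 and 12 in RM2. It was called higher in M1 against M0 by 5.68 on the log2 scale (5.07 to 7.03) and lower in RM1 against M1 by a log2 fold change of -2.50 (-2.86 to -2.20), while Il18 itself was 0.31 in that comparison. Il33, an IL-1 family cytokine, had 235 counts in M0, 1093 in RM0, 26557 in M1, 33813 in RM1, 163 in M2 and 373 in RM2. It was called higher in M1 against M0, at 7.23 (7.06 to 7.44), and after irradiation in M0, at 2.22 (2.03 to 2.44), and in M2, at 1.22 (0.96 to 1.50). Its receptor gene Il1rl1 was called higher in RM1 against M1, at 1.08 (0.52 to 1.73), and lower in M1 against M0, at -2.61 (-3.23 to -2.15). In M2 against M0 1 of the 9 was called higher and 0 lower, beside 0.995% and 0.442% of all tested genes. In RM2 against RM0 1 was called higher and 1 lower, beside 1.66% and 0.953%. The gene called higher was Il1rl1 each time, at 1.26 (1.06 to 1.46) and 1.66 (1.48 to 1.85). Il33 was the gene called lower in RM2 against RM0, at -1.56 (-1.74 to -1.40). Il1f9 and Il1f6, which encode IL-36 cytokines, were called higher in M1 against M0 at 3.75 and 3.10. The decoy receptor gene Il1r2 had 0 counts in all 6 libraries.

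Of 19 signalling and decay genes, 19 had at least 10 counts. After irradiation 0 were called in RM0 against M0, 1 was called lower in RM1 against M1 and 1 higher in RM2 against M2. Of all tested genes 2.25% were called lower in RM1 against M1 and 1.03% higher in RM2 against M2. In RM0 against M0 the shares were 0.719% higher and 0.821% lower. Socs1, a feedback inhibitor of cytokine receptor signalling, was called lower in RM1 against M1, where it had 63 counts against 205, which is -1.85 on the log2 scale (-2.31 to -1.46). Zfp36l1, which encodes a protein that binds AU-rich elements, was called higher in RM2 against M2, with 509 and 1047 counts, at 1.07 (0.92 to 1.23). In M1 against M0, 8 of the 19 were called higher and 0 lower, beside 9.37% and 13.3% of all tested genes. The 5 with the largest changes were Socs1 at 3.78, Tnfaip3, an inhibitor of NF-kB signalling, at 2.80, Zfp36, which encodes tristetraprolin, and Irak2, a kinase gene of IL-1 receptor signalling, at 1.96 each, and Socs3 at 1.75. In M2 against M0 0 were called, beside 0.995% of all tested genes higher and 0.442% lower. In RM2 against RM0 0 were called, beside 1.66% and 0.953%. The irradiation term of edgeR's model was called for 0 genes of the receptor list, 0 of the partner list and 0 of the signalling list, with 3 of 11, 6 of 9 and 3 of 19 at an unadjusted p under 0.05, beside 14.7% of all tested genes. DESeq2's test called 0, 1 and 0 of them, beside 0.994%, and the 1 was Il1f9. The M1 term was called higher for 4, 6 and 10 and lower for 2, 3 and 3 genes of these lists, beside 23.3% and 24.3% of all tested genes. The M2 term was called higher for 0, 1 and 1 and lower for 0 genes, beside 0.156% and 0.0346%, and these were Il1rl1 at 1.46 (adjusted p = 0.00798, edgeR) and Nfkb1 at 0.76 (adjusted p = 0.0372). At an unadjusted p under 0.05 the M2 term counted 4, 4 and 1, beside 10.1%.

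**Figure D5:**
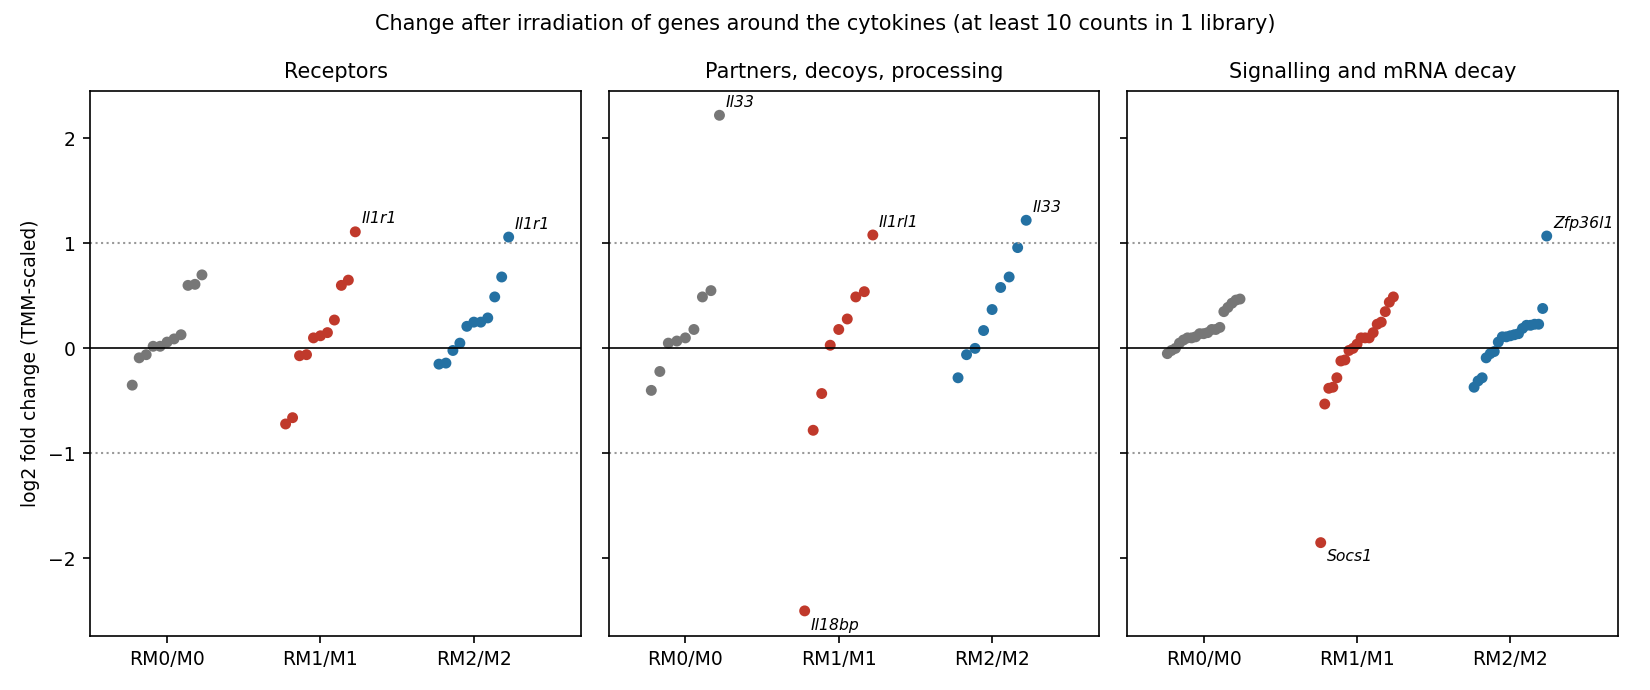
The log2 fold change after irradiation of receptor genes, of partner, decoy and processing genes, and of signalling and mRNA decay genes in each state, 1 point per gene that reached 10 counts in a compared library, ordered by value. Dotted lines mark 2-fold and the genes past them are named, with Il18bp at -2.50 in RM1 against M1 and Il33 at 2.22 in RM0 against M0.

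For 8 cytokine genes, those that averaged 50 counts or more per library, the pattern over the 6 libraries was compared with 10190 genes by the root mean square difference of the centred log2 levels. Nearest to Tnf were Fuca1, at 0.0357, and Aldh2, at 0.0399, and nearest to Il10 were Slc26a2, at 0.0328, and Cstf3, at 0.0433. Tnf and Il10 were also the genes of narrowest range. Nearest to Il6 was Tnfrsf1b, at 0.169, followed by Pgf, at 0.188, and Tnfrsf1b was also second for Il1rn, at 0.145 after Ddt at 0.107. Nearest to Il1a were Rsad2, an interferon-induced antiviral gene, at 0.23, and the chemokine gene Ccl5, at 0.233. Nearest to Il1b were Tubb2b, at 0.241, and Csf3, the gene of the growth factor G-CSF, at 0.262. For Il18 they were Fam114a1, at 0.0826, and E330009J07Rik, at 0.106. Nearest to Il27 were Aoah, at 0.224, and Irf1, at 0.264, and Irf1 had 419 counts in M0, 404 in RM0, 8628 in M1, 1710 in RM1, 405 in M2 and 343 in RM2. Like Il27, Irf1 was high in M1, lower in RM1 and low elsewhere. No gene of these 8 had another of the 8 among its 2 nearest genes, and Il12b and Il23a were too low to be compared.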

How the data were processed

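RNA from RAW264.7 macrophages was sequenced in 6 conditions with 1 library each. The authors deposited raw counts per gene, without normalization, in 6 tables. The submitters' processing notes name Trimmomatic 0.36, HISAT2 2.2.1 and HTSeq 0.11.3 with build mm10. Whether counting used the strand is not given in the sources used here. Il12b's accession was absent from the annotation, so its length is that of its longest transcript.

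Counts were scaled with TMM factors (edgeR version 4.0.16, R version 4.3.3) computed on genes that reached 10 counts in 3 or more libraries. A prior count of 2 was added for log2 fold changes. Pairs of libraries were called at 2-fold where either library reached 10 counts, without a p-value, and 3 counts or fewer in both gave no fold change. Intervals at 95% are exact Clopper-Pearson or Poisson intervals, which, like the 3 counts that a count of 0 allows, cover counting error only. Shared terms came from edgeR's quasi-likelihood test of polarization and irradiation over 11574 genes, with Benjamini-Hochberg adjustment at 0.05 and a fitted biological coefficient of variation of 0.107. Their standard errors were derived from the F statistics. The test was tried on simulated data before use. These had no polarization effect and the same irradiation effect in each state, so the trial does not check the assumption of a shared effect. The libraries carry no label of separate cultures, so these p-values measure the spread between states, pooled in part over genes.

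The cytokine genes and the lists of receptors, partners, signalling genes and cell markers were chosen with earlier results of these data known. All 10 cytokine genes are named, and of the lists some of those past 2-fold, from the 5 with the largest changes per list and comparison. Genes passing a model term were also named. Genes Ebi3, Il12a and Il1r2 were named after their values were seen. Genes of like pattern are the 2 nearest with at least 50 mean counts. Transcript lengths and sequence after the stop codon came from GENCODE M21 and promoters from RefSeq (GRCm38.p6). DESeq2 (version 1.42.0) size factors and Wald test, library totals, other filters, a prior count of 0.25, a 4-fold threshold, fewer model terms and each state left out were alternatives. Levels from the listed bases alone, and the model values of each cytokine gene under the alternatives, were added after seeing the data. Exosome, protein and qPCR measurements were not analysed here.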

Additional observations from a re-analysis of the deposited data

Results flagged for a closer look

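Tnf had effects of opposite sign in different groups, a difference that was not tested because each condition has 1 library. After irradiation its log2 fold change was 0.12 in RM0 against M0 and -0.27 in RM1 against M1, and by library totals 0.07 and -0.13. In M1 against M0 the log2 fold change of Tnf was 0.28, while in RM1 against RM0 it was -0.11. By library totals those were -0.17 and -0.36, so in that scaling the signs were the same. No value here reached 2-fold.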

How the results depend on the processing

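The polarization term pairs each irradiated library with the non-irradiated library of its state, so the fit without it is the unpaired one. At a 4-fold threshold 0 cytokine genes were called higher and 0 lower in RM1 against M1, and 0 lower in RM1 against RM0. At that threshold 5 were still called higher and 1 lower in M1 against M0, and 4 higher in RM1 against RM0. With at least 50 counts required, 0 were called lower in M1 against M0 and in RM1 against RM0. With no filter 1, Il12b, was called lower in RM2 against RM0. The shares of all genes called under these other limits are not given here. The irradiation term was called for 55 genes and 1 cytokine gene. It was called for 115 genes with DESeq2's test, 134 with no filter (2 cytokine genes) and 0 without the polarization term (0 cytokine genes, and 138 genes at an unadjusted p under 0.05), and for 79 to 522 genes and 2 to 3 cytokine genes when a state was left out. The highest count came without M1 and RM1 and 174 came without M0 and RM0. With a state left out the fit rests on fewer libraries, so a lower p-value or a higher count there is not stronger evidence. The M2 term was called for 22 genes, and for 41 (1 cytokine gene, Il1b) with DESeq2's test, 45 with no filter and 0 without the irradiation term (621 at an unadjusted p under 0.05). Against Il1b alone the antagonist ratio was 30.4 in M1 and 16.9 in RM1. The level in M0 was 18.4 CPM per kb for Il1a, 1157 for Il1b and 6.01 for Il27 from the listed bases alone, and 2.09 for Il6 and 481 for Il1rn with the longest transcript. Of 68 fold changes of the cytokine genes between libraries, 25 moved beyond their counting interval by library totals, 2 with DESeq2's size factors and 0 with a prior count of 0.25. Low counts limit Il12b and Il23a, and the single library per condition limits all other values.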
